A study of Mus musculus with 3 samples.

Results

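Out of 18194 genes with a probe set assigned to them alone, 10 mouse regulators of the antioxidant response are described here. These are all the genes named for this group. They comprise the cap'n'collar (CNC) transcription factors Nfe2, Nfe2l1, Nfe2l2 and Nfe2l3, the adaptor Keap1, the repressors Bach1 and Bach2, and the small MAF partners Maff, Mafg and Mafk. The genes were taken by name, with earlier results of these data known, and all 18 probe sets that the platform annotation assigns to 1 of them alone were taken. RNA came from 3 samples of 3T3-L1 adipocytes, cultured fat cells obtained by differentiating a mouse fibroblast line, that had been exposed for 2 h to glucose oxidase, an enzyme that generates hydrogen peroxide as it consumes glucose. No genetic alteration is named in the labels, and 1 established cell line stands for fat tissue here. Untreated arrays were not analysed here. Each value is therefore a level reached under treatment, with neither a fold change nor a test of the treatment behind it. The sources used do not say whether the samples were separate cultures, and their spread may be purely technical.

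NRF2, the product of Nfe2l2, is held in the cytoplasm by KEAP1, which presents it to a cullin ubiquitin ligase for degradation. Oxidants modify cysteines of KEAP1, newly made NRF2 escapes to the nucleus, and there it pairs with a small MAF protein and binds antioxidant response elements in front of detoxification genes. BACH1 competes for the same small MAF partners and the same elements and represses them until haem or oxidants remove it. Because NRF2 is controlled mainly through protein stability, the level of its transcript need not follow its activity.

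The antioxidant response element core occurs near RefSeq start sites of some of the regulators themselves. RefSeq windows of 300 bases (GRCm38.p6, 250 before to 50 after each start site) were found for 9 of the 10 genes, and Nfe2 is named only. The core TGACNNNGC, searched on both strands, lay in the windows of Nfe2l2, Maff, Mafg and Mafk, which is 4 of 9 genes and all 3 small MAF genes, while 14.0% of all 27025 genes with a window held it. Maff has 3 windows and Nfe2l1 has 5, which gives them more chances of a match than the genes with 1. These stretches are shown because they are the matches among the regulators. Each runs 5′ to 3′ on the strand of the gene, and capitals mark the core.
Nfe2l2, chr2:75704875-75704913, minus strand: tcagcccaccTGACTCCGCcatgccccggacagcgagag
Maff, chr15:79346489-79346537, plus strand: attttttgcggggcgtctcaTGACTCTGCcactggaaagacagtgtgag
Mafg, chr11:120633741-120633789, minus strand: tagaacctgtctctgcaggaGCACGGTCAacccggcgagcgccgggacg
Mafk, chr5:139791503-139791535, plus strand: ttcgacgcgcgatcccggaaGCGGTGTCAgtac
Read along the gene, the core begins 240 bases before the start site of its window in Nfe2l2, 112 in Maff, 222 in Mafg and 13 in Mafk. The start site of the Mafg window is an internal one, since the gene as annotated spans 120625117 to 120634955 of chromosome 11 on the minus strand and the stretch shown lies inside it. The core lies on the strand of the gene in Nfe2l2 and Maff and on the opposite strand in Mafg and Mafk. The AP-1 site TGANTCA, which can overlap the core, was in 0 of the 9 regulator genes and in 8.97% of all genes. A match is a string of letters and not a measured binding site.

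The deposited values are RMA intensities on a linear scale, and log2 was taken of each. Background was set at a log2 intensity of 7.57, the 95th percentile of 86 chemosensory receptor probe sets (olfactory, vomeronasal, taste, and pseudogenes of these), and a probe set was called above background if it passed this level in all 3 arrays. By this rule 10 of the 18 regulator probe sets were above background, against 38.9% of all 45101 probe sets. Counted by gene, with any probe set sufficing, 7 of the 10 regulators were above background, against 54.6% of all genes. The 7 were Nfe2l1, Nfe2l2, Keap1, Bach1, Maff, Mafg and Mafk, and the remaining genes were Nfe2, Nfe2l3 and Bach2. Array signals of different probe sets depend on the probes, so the levels of different genes were not ranked against each other.

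**Figure D1:**
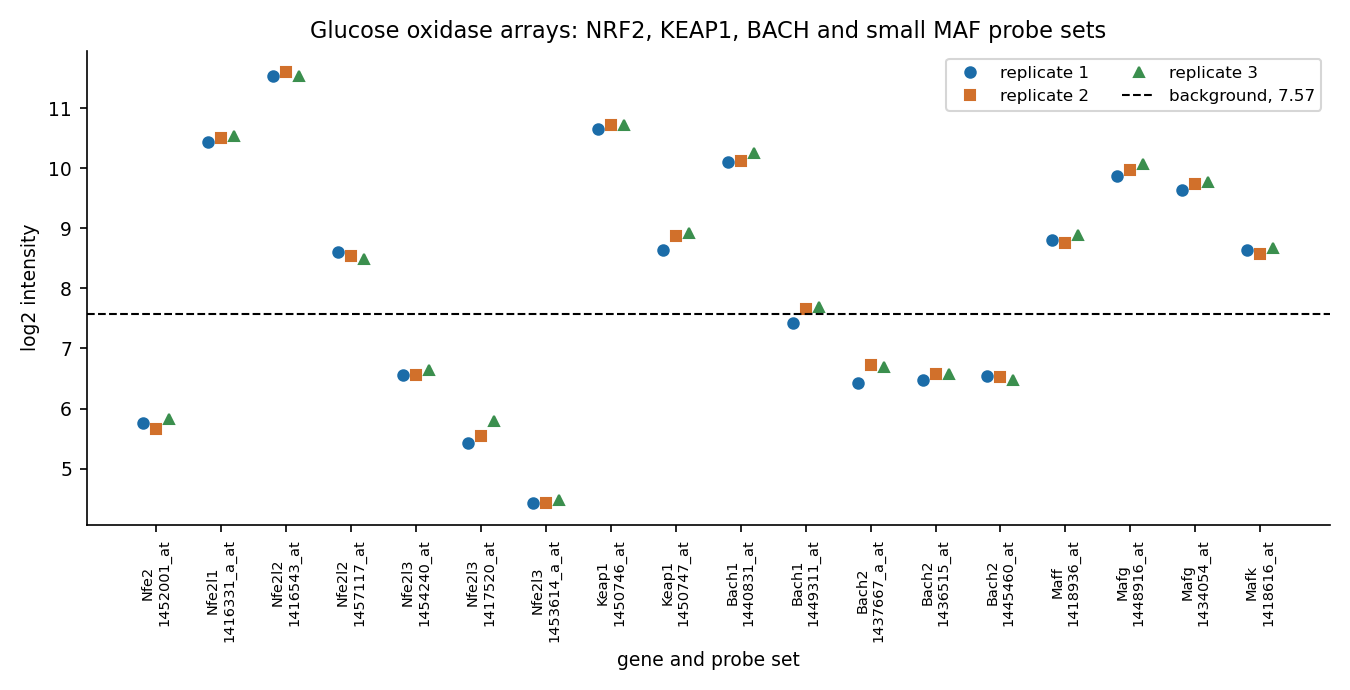
Log2 intensity (y axis) of the 18 probe sets of the 10 regulator genes (x axis) in the glucose oxidase arrays, 1 symbol per replicate, with background as a dashed line. All 7 probe sets of Nfe2, Nfe2l3 and Bach2 sit below the line in every array, and 1449311_at of Bach1 straddles it.

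All 12 measured adipocyte markers were above background, and so were all 8 preadipocyte and fibroblast markers. The tissue label names preadipocytes, whereas the growth protocol describes differentiated cells. The preadipocyte and fibroblast count was 7 of 8 with the 99th percentile as background. It was also 7 without probe sets that can cross-hybridise and with the median over probe sets of 1 gene. Of markers of other cells, 3 of 8 macrophage genes, 1 of 5 endothelial genes, 1 of 4 erythroid and megakaryocyte genes and 1 of 4 lymphocyte genes were above background, against 54.6% of all genes. The erythroid and megakaryocyte count was 2 with the 90th percentile as background or without replicate 3, when Klf1 passed. The array medians were 126.9 to 127.6 on the linear scale.

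Nfe2l2, which encodes NRF2, was measured by 2 probe sets. Probe set 1416543_at read a log2 intensity of 11.53 in replicate 1, 11.59 in replicate 2 and 11.53 in replicate 3, a mean of 11.55 ± 0.040 (SD, n = 3). Probe set 1457117_at read 8.60, 8.54 and 8.49 in the same order, a mean of 8.54 ± 0.054 (SD, n = 3). The difference between them was 3.01 ± 0.070 on the log2 scale (SD, n = 3), far above the spread between arrays, so no single level stands for the transcript. The arrays were in a different order in each, with replicate 2 highest in the brighter probe set and replicate 1 highest in the dimmer one. Both ranges, 0.069 and 0.11 log2 units, were small.

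Nfe2l1 encodes NRF1, a membrane-anchored relative of NRF2 that is released to drive proteasome genes when proteasome capacity falls. Its only probe set, 1416331_a_at, read 10.43, 10.50 and 10.53 in replicates 1, 2 and 3, a mean log2 intensity of 10.49 ± 0.050 (SD, n = 3). The 3 arrays lay within 0.099 log2 units of each other.

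Nfe2 and Nfe2l3, the other CNC factors, were below background in every array. Nfe2 encodes the blood cell factor p45 NF-E2, known for its role in red cell precursors and platelet formation, and read 5.76, 5.66 and 5.83 (mean log2 intensity 5.75 ± 0.088, SD, n = 3). Of the 4 measured markers of that lineage, the erythroid regulator gene Gata1 and the platelet gene Pf4 were not above background either, at means of 7.32 and 5.89. The erythroid factor gene Klf1 read 7.88, 7.67 and 7.52 in replicates 1, 2 and 3, so that replicates 1 and 2 passed the background level and replicate 3 did not. Itga2b, the platelet integrin gene, was above background in all 3 arrays at 9.10 ± 0.021 (SD, n = 3), and these markers were named after their values were seen. Nfe2l3 encodes NRF3, a CNC factor of less settled function. Its 3 probe sets had mean log2 intensities of 6.58 (1454240_at), 5.59 (1417520_at) and 4.45 (1453614_a_at). Among them 1417520_at varied most, with 5.42, 5.54 and 5.80 in replicates 1, 2 and 3 and an SD of 0.19, a spread on signals under background.

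Keap1, the sensor and inhibitor of NRF2, was above background with both of its probe sets. Probe set 1450746_at read 10.65, 10.72 and 10.72 in replicates 1, 2 and 3 (mean log2 intensity 10.70 ± 0.041, SD, n = 3). Probe set 1450747_at read 8.64, 8.87 and 8.93 in the same order (mean 8.81 ± 0.15, SD, n = 3). Replicate 1 was the lowest array in both. In 1450747_at the range over the arrays was 0.29 log2 units, a ratio of 1.22 between the highest and lowest intensity, which was the widest range among the regulator probe sets above background. Of the 4979 probe sets above background within 0.5 log2 units of its mean, 97.1% had a smaller SD. For the brighter Keap1 probe set the same share was 45.2% of 2531 probe sets.

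The profile of 1450747_at over the 3 arrays, centred on its mean, lay nearest to those of Pdk2, Endod1 and Cab39 among 15859 probe sets of single other genes above background. The root mean square difference was 0.0044 for Pdk2, 0.0046 for Endod1 and 0.0051 for Cab39, in log2 units over 3 arrays. At the looser limit of 0.05, 560 of the 15859 probe sets lay near it. With so few arrays such likeness says little about shared control.

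Bach1, the haem-sensitive repressor, was above background with 1 of its 2 probe sets. Probe set 1440831_at read 10.11, 10.12 and 10.25 in replicates 1, 2 and 3 (mean log2 intensity 10.16 ± 0.077, SD, n = 3). Probe set 1449311_at read 7.42, 7.66 and 7.69 (mean 7.59 ± 0.15, SD, n = 3), so that replicates 2 and 3 passed the background level and replicate 1 did not. In both, replicate 1 was lowest and replicate 3 highest.

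Bach2, a relative of BACH1 best known as a regulator of B and T lymphocytes, was below background in each array with all 3 probe sets. Their mean log2 intensities were 6.61 ± 0.17 (1437667_a_at), 6.54 ± 0.058 (1436515_at) and 6.52 ± 0.037 (1445460_at, SD, n = 3 for each). They differed from each other by 0.029 to 0.098 log2 units on average, and no pair kept the same order in all 3 arrays. Of the 4 measured lymphocyte markers, only Cd3e was above background, at 8.27 ± 0.024 (SD, n = 3), also named after its value was seen.

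The small MAF proteins carry a DNA-binding leucine zipper but no activation domain, and form heterodimers with both CNC and BACH proteins. All 3 genes were above background. Mafg was measured by 1448916_at, with log2 intensities of 9.86, 9.96 and 10.07 in replicates 1, 2 and 3 (mean 9.96 ± 0.10, SD, n = 3), and by 1434054_at, with 9.63, 9.73 and 9.76 (mean 9.71 ± 0.070, SD, n = 3). The 2 probe sets differed by only 0.26 ± 0.041 log2 units (SD, n = 3), the closest pair among the regulators above background, and both put replicate 1 lowest and replicate 3 highest. Of 3701 probe sets of like level, 92.7% had a smaller SD than 1448916_at.

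Maff, which is inducible by stress and inflammatory signals in many cells, read 8.80, 8.76 and 8.89 in replicates 1, 2 and 3 with its single probe set 1418936_at (mean log2 intensity 8.82 ± 0.070, SD, n = 3). Mafk read 8.64, 8.58 and 8.68 with 1418616_at (mean 8.63 ± 0.049, SD, n = 3). For Maff and Mafk replicate 2 was the lowest array, unlike Mafg, and replicate 3 the highest, as in Mafg.

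The spread of the regulators was close to that of the array as a whole. The median SD of the 10 regulator probe sets above background was 0.062 log2 units, against 0.051 over all 17553 probe sets above background, and single values ran between 0.040 for 1416543_at of Nfe2l2 and 0.15 for 1450747_at of Keap1. A range over 0.2 log2 units, a limit set with the values in view, was found in 2 of the 10, against 10.1% of all probe sets above background. These were 1450747_at of Keap1 and 1448916_at of Mafg, the second just past the limit at a range of 0.202.

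**Figure D2:**
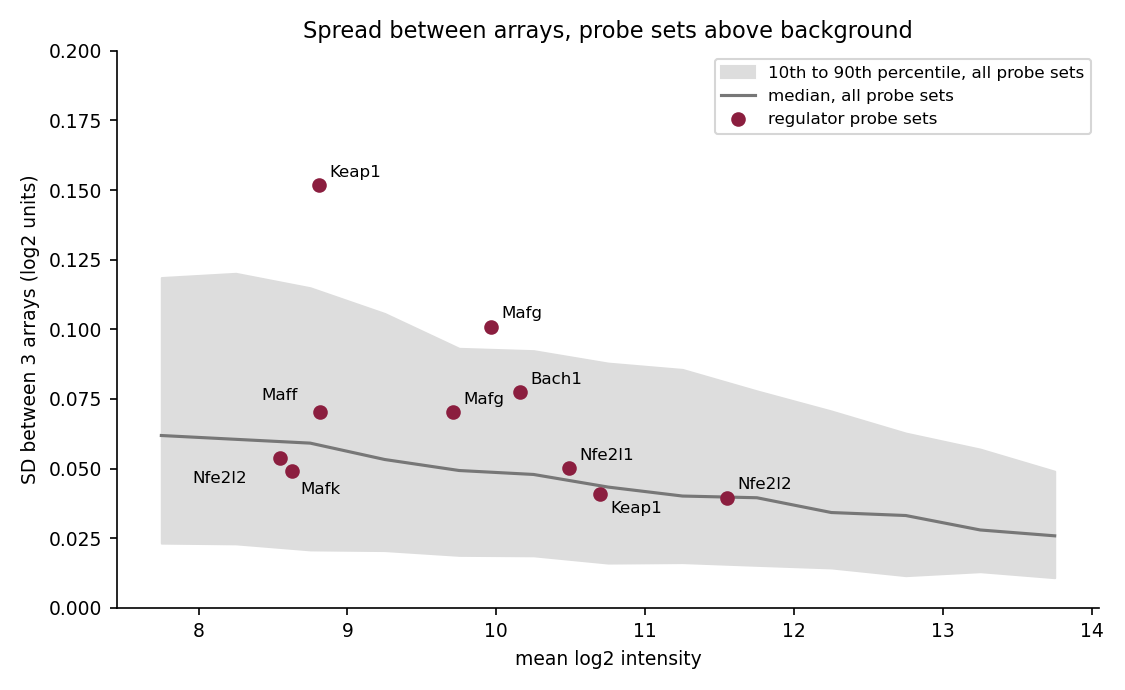
SD between the 3 glucose oxidase arrays (y axis, log2 units) against mean log2 intensity (x axis) for the 10 regulator probe sets above background (points), with the median (line) and the 10th to 90th percentile (grey) of all probe sets above background in bins of 0.5 log2 units. 1450747_at of Keap1 and 1448916_at of Mafg lie above the grey band, and the other 8 lie inside it.

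Replicate 1 gave the lowest value in 7 of the 10 regulator probe sets above background, against 46.3% of all probe sets above background. Replicate 2 was lowest in 2, against 24.7%, and replicate 3 in 1, against 29.0%. Replicate 3 gave the highest in 7 of 10, against 42.4%. Counted once per gene by the brightest probe set, replicate 1 was lowest in 5 of 7 regulators, against 44.6% of all genes above background. The median of replicate 3 minus replicate 1 was 0.096 log2 units over the 10 probe sets and 0.025 over all probe sets above background. With each array centred on its probe sets above background, replicate 1 was lowest in 5 of the 10 regulator probe sets, against 28.0% of all. Probe sets of 1 gene share their transcript, so the 10 are not independent. The ratio of 3′ to 5′ signal of actin, a sign of RNA quality, was 1.70 in replicate 1, 1.58 in replicate 2 and 1.54 in replicate 3, whereas the ratio for Gapdh was 1.11, 1.14 and 1.10. Their part in these differences was not tested.

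**Figure D3:**
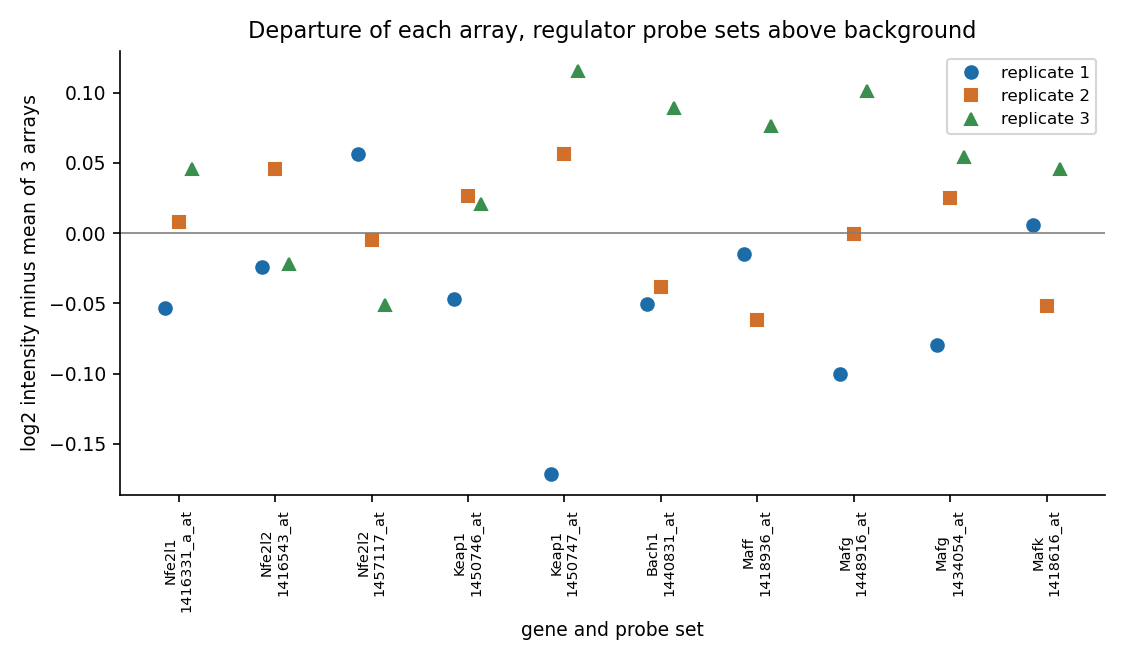
Departure of each glucose oxidase array from the mean of the 3 (y axis, log2 units) for the 10 regulator probe sets above background (x axis), 1 symbol per replicate. Replicate 1 is the lowest symbol in 7 of the 10 and replicate 3 the highest in 7 of the 10, and 1457117_at of Nfe2l2 runs the other way.

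Partners of these regulators were taken from 6 lists of 34 genes, of which 31 were measured and 27 were above background, against 54.6% of all genes. A gene with more probe sets has more chances of passing, and Gsk3b and Maf have 6 each. In the list of the ubiquitin ligases that degrade NRF2, 7 of 8 genes were above background. Gsk3b, the kinase that marks NRF2 for the ligase with β-TrCP, read 9.98, 10.15 and 10.35 in replicates 1, 2 and 3 (mean log2 intensity 10.16 ± 0.18, SD, n = 3). Fbxw11, one of the β-TrCP genes, was at 11.68 ± 0.079 (SD, n = 3). The exception was Rbx1, the RING subunit, at 6.95 ± 0.0074 (SD, n = 3) with its only probe set assigned to it alone. For Rbx1, 5 probe sets that name it with another gene were not used. With the median over probe sets of 1 gene, 6 of the 8 genes in this list were above background.

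Among proteins that bind KEAP1, 6 of 7 genes were above background. For each list in this paragraph the share of all genes was 54.6%. With the 99th percentile as background the count was 5 of 7, with no share of all genes to set beside it. Sqstm1, the autophagy receptor p62 that sequesters KEAP1, read 12.99, 13.02 and 13.03 in replicates 1, 2 and 3 (mean log2 intensity 13.02 ± 0.024, SD, n = 3). Palb2, a DNA repair partner of BRCA2, was the gene below background, at 5.46 ± 0.19 (SD, n = 3), and the replication helicase gene Mcm3 was at 8.05 ± 0.073 (SD, n = 3). For the processing and turnover of NRF1, 3 of 4 measured genes were above background. Vcp, the ATPase that extracts NRF1 from the membrane, was at 12.52 ± 0.066 (SD, n = 3). Fbxw7, a ligase subunit, read 7.49, 7.66 and 7.65 with its brightest probe set and missed the call through replicate 1.

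All 3 genes for BACH1 turnover and haem synthesis were above background. For each list in this paragraph the share of all genes was 54.6%. Fbxo22, which targets BACH1 for degradation, was at 11.10 ± 0.036 (log2 intensity, SD, n = 3). Alas1, the first enzyme of haem synthesis, was at 10.81 ± 0.056 (SD, n = 3). The coactivator and chromatin list had 7 of 7 genes above background. With the 99th percentile as background it had 6 of 7, again with no share of all genes to set beside it. Chd6, a chromatin remodeller, was at 8.68 ± 0.12, and Ep300, the acetyltransferase p300, at 9.16 ± 0.11 (SD, n = 3). Of the large MAF factors, which have the activation domain that small MAFs lack, 1 of 2 measured genes was above background. Maf read 10.27, 9.97 and 10.15 in replicates 1, 2 and 3 (mean 10.13 ± 0.15, SD, n = 3), with replicate 2 lowest, and the retinal factor gene Nrl was at 6.47 ± 0.037 (SD, n = 3). With the median of its 6 probe sets Maf was not above background.

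Of 24 NRF2 target genes, 21 were measured and 20 were above background, against 54.6% of all genes. Sqstm1 is in this list and in that of KEAP1-binding proteins, and was counted in both. Replicate 1 was the lowest array in 14 of the 20, against 44.6% of all genes above background. With each array centred on its probe sets above background the count was 8 of 20, against 25.0% of genes. Srxn1, which encodes sulfiredoxin, the repair enzyme of peroxiredoxins, had the widest range among them, with log2 intensities of 10.35, 10.51 and 10.63 in replicates 1, 2 and 3. Gclm, the modifier subunit of the enzyme that limits glutathione synthesis, read 10.82, 10.95 and 11.09. Txnrd1, cytosolic thioredoxin reductase, read 10.25, 10.43 and 10.48 with the only 1 of its 3 probe sets that was above background. In all 3 of these genes replicate 1 was the lowest array and replicate 3 the highest. Among the regulator probe sets above background that order was also seen in Nfe2l1, 1450747_at of Keap1, 1440831_at of Bach1 and both probe sets of Mafg. Over all probe sets above background, replicate 1 was lowest in 46.3% and replicate 3 highest in 42.4%. The share with both was not counted, so the order cannot be read as particular to these genes.
Gclc, the catalytic partner of Gclm, read 9.63, 9.78 and 9.76 in replicates 1, 2 and 3, and Hmox1, haem oxygenase 1, a target shared by NRF2 and BACH1, read 12.55, 12.61 and 12.72. Nqo1, the quinone reductase gene often used as an NRF2 readout, held within 0.044 log2 units, at a mean of 8.41 ± 0.022 (SD, n = 3). Ranges were narrower still for the targets Txn1, Gsr and Tkt. Slc7a11, the cystine transporter gene, was the target not above background, at 6.37 ± 0.0095 (SD, n = 3). A window was found for 20 of the 24 target genes, a different set from the 20 above background. The core TGACNNNGC was in 8 of these 20, against 14.0% of all genes. Gclm, Txnrd1 and Srxn1 were among the 8. So were G6pdx and Prdx1, for which no probe set assigned to them alone was found.

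**Figure D4:**
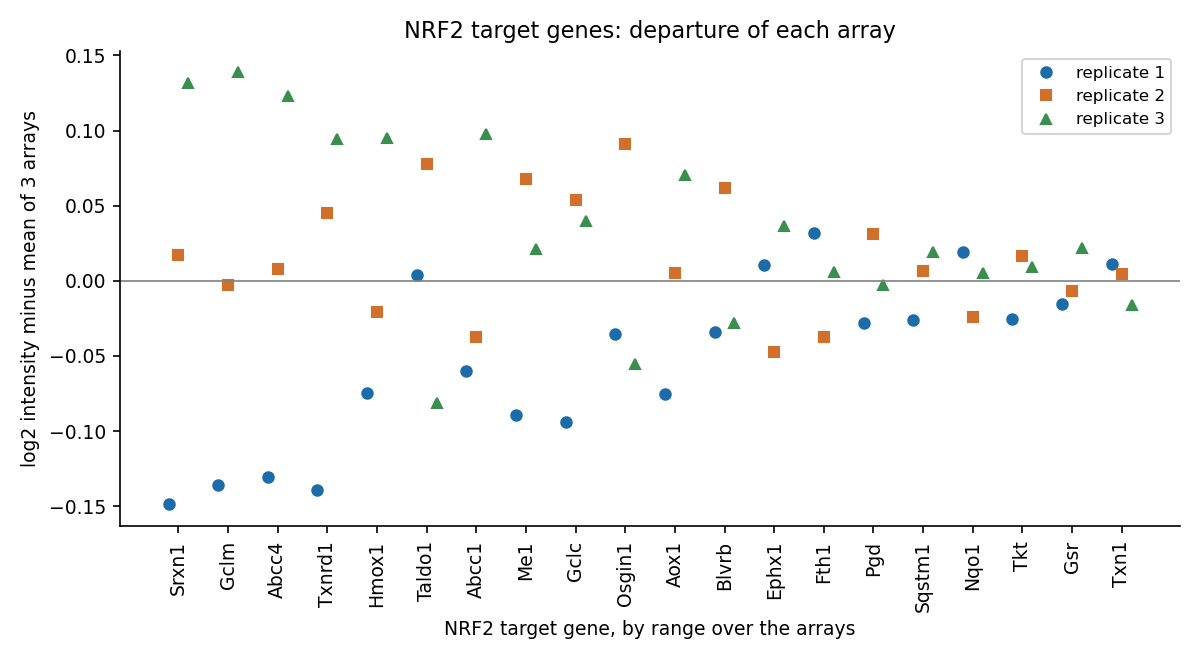
Departure of each glucose oxidase array from the mean of the 3 (y axis, log2 units) for the brightest probe set of the 20 NRF2 target genes above background (x axis, widest range first), 1 symbol per replicate. Replicate 1 is the lowest symbol in 14 of the 20, among them Srxn1, Gclm and Txnrd1, and the ranges are narrowest for Txn1 and Gsr.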

How the data were processed

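The deposited intensities came from mouse4302 Affymetrix arrays, and the authors had applied RMA background correction and normalization through affyPLM (version not given in the sources used here). They are on a linear scale. Which arrays were normalized together, and any later scaling, stays unknown. Log2 was taken without a pseudocount. The number of arrays limits the precision. Of 45101 probe sets, 34958 named 1 gene in the platform annotation and were used for genes, 932 named several and 9211 none. A listed gene with no probe set among the 34958 was counted as not measured. All 10 members matched RefSeq (GRCm38.p6) by Entrez identifier. The members and gene lists were chosen with earlier results of these data known. With 1 group no test was run. Named genes were all members, in each partner list the 2 with the largest SD and those not above background, and targets set by name plus any not above background. Each partner, target and marker was given by its brightest probe set. Alternatives were other background percentiles and probe sets, dropping probe sets that can cross-hybridise, the median over probe sets of 1 gene, a pseudocount of 16, centring, and leaving out each array. Motif matches were exact. Python 3.11.15, pandas 2.3.3, numpy 2.4.6 and matplotlib 3.10.9 were used.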

Additional observations from a re-analysis of the deposited data

How the results depend on the processing

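No paired analysis was possible because only 1 group was measured. The count of 7 regulator genes above background was the same under each alternative. The count of regulator probe sets was 11 in place of 10 with the 90th percentile as background or without replicate 1, when 1449311_at of Bach1 passed. With each array left out in turn, the median SD of regulator probe sets was 0.042 to 0.073, the number of NRF2 targets above background stayed at 20, and that of partners was 27 to 28. With the median over probe sets of 1 gene, 19 targets and 23 partners were above background. With the 99th percentile, or with keratin-associated and defensin probe sets as background, 25 partners were. The share of all genes is not given under these settings, so these counts have no share beside them. Adding 16 to each intensity moved 9 of the 18 levels by more than 1 SD, among them Nfe2 at 6.12 and 1453614_a_at of Nfe2l3 at 5.24. Of probe sets above background, Mafk moved from 8.63 to 8.69 and 1457117_at of Nfe2l2 from 8.54 to 8.60. With arrays centred on the probe sets above background, a setting chosen after seeing the data, the lowest array was replicate 1 in 5 of 10 regulator probe sets and 8 of 20 targets. The counts with 16 added to each intensity were also added after seeing the data. The levels of genes below background are limited by signal over background and have no order.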

Other observations

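Other short motifs were counted in the same 300 base windows, with no test. The E-box CACGTG was in the windows of Maff, Mafg and Mafk and in no other regulator, which is 3 of 9 genes, against 8.09% of all genes. The cyclic AMP response element TGACGTCA was in a window of Maff only, 1 of 9 regulator genes, against 2.03% of all genes. Both counts were made after the sequences had been seen.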
